A study of Homo sapiens with 12 samples.

Results

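Reference miRNAs are small RNAs whose level is taken to be the same in every sample, so that other miRNAs can be expressed relative to them. The 8 names below, often used in this way, were followed here: hsa-miR-423-5p, hsa-miR-423-3p, hsa-miR-191-5p, hsa-miR-425-5p, hsa-miR-103a-3p, hsa-miR-107, hsa-miR-484 and hsa-miR-361-5p, where hsa marks the human miRNA and is left out from here on. They were picked by name, with earlier results of these data known. All 8 were listed in all 12 libraries, out of 2656 mature miRNA names in the series. The libraries came from AC16, a human cell line of ventricular cardiomyocyte origin made by fusing heart cells with fibroblasts, and from the exosomes, small membrane vesicles, that AC16 cells release. There were 4 groups of 3 libraries each: exosomes Ang, exosomes Con, cells Ang and cells Con. Ang is the treated group, written AngII in the column headers, and Con its control; its dose and duration were not stated in the labels or headers. The labels do not say whether the 3 libraries of a group came from separate cultures, so p-values measure the spread between these libraries, which may be technical. AC16 is 1 line, and all groups share it.

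A mature miRNA is cut from a hairpin precursor, and bases 2 to 8, the seed, pair with target mRNAs. Exosomes carry a selection of the cell's small RNAs, so a miRNA that is steady in cells need not be steady in vesicles. miR-423-5p and miR-423-3p are the opposite strands of 1 hairpin, and miR-423-5p in human plasma has been studied as a marker of heart failure. miR-191 and miR-425 come from 1 host gene, DALRD3. miR-103a and miR-107 form a family within the introns of pantothenate kinase genes and have been linked in mouse to insulin sensitivity. miR-484 has been described as a repressor of the mitochondrial fission protein FIS1, and miR-361-5p as a repressor of VEGFA.

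The mature sequences are shown because the split of reads between near-identical or seed-sharing names decides how far single members can be read. A mature sequence was found for 7 of the 8 in the RefSeq table (GRCh38.p14); capitals mark the seed, and miR-103a-3p and miR-107 are put next to each other because they share it.
hsa-miR-103a-3p: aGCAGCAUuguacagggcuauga
hsa-miR-107: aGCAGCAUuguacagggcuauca
hsa-miR-423-5p: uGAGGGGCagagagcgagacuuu
hsa-miR-423-3p: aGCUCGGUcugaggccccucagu
hsa-miR-191-5p: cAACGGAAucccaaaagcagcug
hsa-miR-484: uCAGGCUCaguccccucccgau
hsa-miR-361-5p: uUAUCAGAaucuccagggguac

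miR-103a-3p and miR-107 differed by 1 substitution, G22C, counted from 1 at the 5′ end of miR-103a-3p, so their separate counts are uncertain. miR-423-5p shares its seed with miR-3184-5p, whose hairpin MIR3184 overlaps MIR423 on the opposite strand; miR-3184-5p averaged 27.2 CPM in exosomes Ang, 35.6 CPM in exosomes Con, 138 CPM in cells Ang and 129.7 CPM in cells Con. miR-484 shares its seed with miR-3155a and miR-3155b. The seeds of miR-423-3p, miR-191-5p and miR-361-5p occurred in no other of the 2370 mature names. By the GENCODE release 29 annotation (GRCh38), MIR423 (chr17:30117079-30117172, plus strand) lies in an exon of a transcript of NSRP1, and MIR484 (chr16:15643294-15643372, plus strand) in an exon of a transcript of NDE1. MIR191 (chr3:49020618-49020709) and MIR425 (chr3:49020148-49020234) lie in introns of DALRD3 on the minus strand, and MIR361 (chrX:85903636-85903707, minus strand) in an intron of CHM. miR-103a-3p has 2 hairpins, MIR103A1 in an intron of PANK3 (chr5:168560896-168560973, minus strand) and MIR103A2 in an intron of PANK2 (chr20:3917494-3917571, plus strand), and MIR107 lies in an intron of PANK1 (chr10:89592747-89592827, minus strand). The 3 short motifs GGAG, CCCU and GGCU were searched in the mature sequences, as RNA of the mature strand. GGAG was in 0 of the 7, against 15.7% of all mature names, CCCU was in 2, against 11.9%, and GGCU was in 3, against 12.6%. The names with GGCU include the near-identical miR-103a-3p and miR-107, so they are not separate sequences.

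The deposited values were counts of unique molecular identifiers (UMIs), which tag single molecules before amplification. Library totals were 697049 to 1022550 UMIs in exosomes Ang, 888518 to 1029883 in exosomes Con, 413513 to 512840 in cells Ang and 424041 to 528844 in cells Con, and 3 counts correspond to between 2.91 and 7.25 CPM (UMIs scaled by the total of the library). A library differed more than the rest, exosomes Con replicate 1: its chi-square per degree of freedom over all names was 6.57 and 10.6 against replicates 2 and 3, which gave 1.91 against each other. Cells Ang replicate 2 also stood apart, at 4.0 and 4.37 against replicates 1 and 3, which gave 1.99 against each other. The 7 muscle markers summed to 57.4 to 71.4 CPM in exosomes Ang, 73.8 to 90.6 CPM in exosomes Con, 285 to 326 CPM in cells Ang and 344 to 376 CPM in cells Con. Of these, miR-208a-3p gave the most, with 162 CPM in cells Ang and 221 CPM in cells Con, while miR-1-3p, a defining muscle miRNA, averaged 5.73 CPM in cells Ang and 11.9 CPM in cells Con, on 2 to 9 UMIs per library. The 7 markers of blood cells and liver summed to 350.0 to 655 CPM in exosomes Ang, 559 to 1427 CPM in exosomes Con, 2037 to 6982 CPM in cells Ang and 2122 to 2374 CPM in cells Con, with the highest cell value in cells Ang replicate 2. In cells miR-223-3p gave most of this sum, averaging 2359 CPM in cells Ang and 1999 CPM in cells Con. By contrast, miR-451a averaged 77.2 CPM in cells Ang and 6.82 CPM in cells Con, and miR-122-5p 65.8 and 5.75 CPM.

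In cells the reference miRNAs other than miR-484 were moderately to highly abundant, while miR-484 averaged 37.6 CPM in cells Ang and 45.2 CPM in cells Con. By group means all 8 took a smaller share of the molecules in exosomes. For miR-423-5p this did not hold in every library, since exosomes Con replicate 3 had 614 CPM, above the 541 to 585 CPM of cells Con. Together the 8 held 0.0835% ± 0.018 of UMIs in exosomes Ang, 0.127% ± 0.062 in exosomes Con, 1.27% ± 0.025 in cells Ang and 1.22% ± 0.083 in cells Con (SD, n = 3 each). Their geometric mean was 71.2 ± 14.7 CPM in exosomes Ang, 97.0 ± 40.4 CPM in exosomes Con, 691 ± 18.3 CPM in cells Ang and 656 ± 36.8 CPM in cells Con (SD, n = 3 each). The order in cells ran from miR-103a-3p, ranked 35 of 2656 names in cells Ang and 40 in cells Con, through miR-107 and miR-191-5p, down to miR-484, ranked 1200 in cells Ang and 1075 in cells Con. miR-103a-3p and miR-107 overlapped within cells Con, and miR-361-5p and miR-423-5p overlapped within cells Ang. In exosomes the leading name was miR-191-5p in the Ang group, with 248 ± 53.1 CPM and libraries overlapping those of miR-107 and miR-103a-3p, and miR-423-5p in the Con group, with 397 ± 258 CPM, where its libraries overlapped those of miR-191-5p. miR-484 was again last, at 14.2 ± 2.60 CPM in exosomes Ang and 16.6 ± 2.61 CPM in exosomes Con (SD, n = 3 each), on 8 to 19 UMIs per library.

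**Figure D1:**
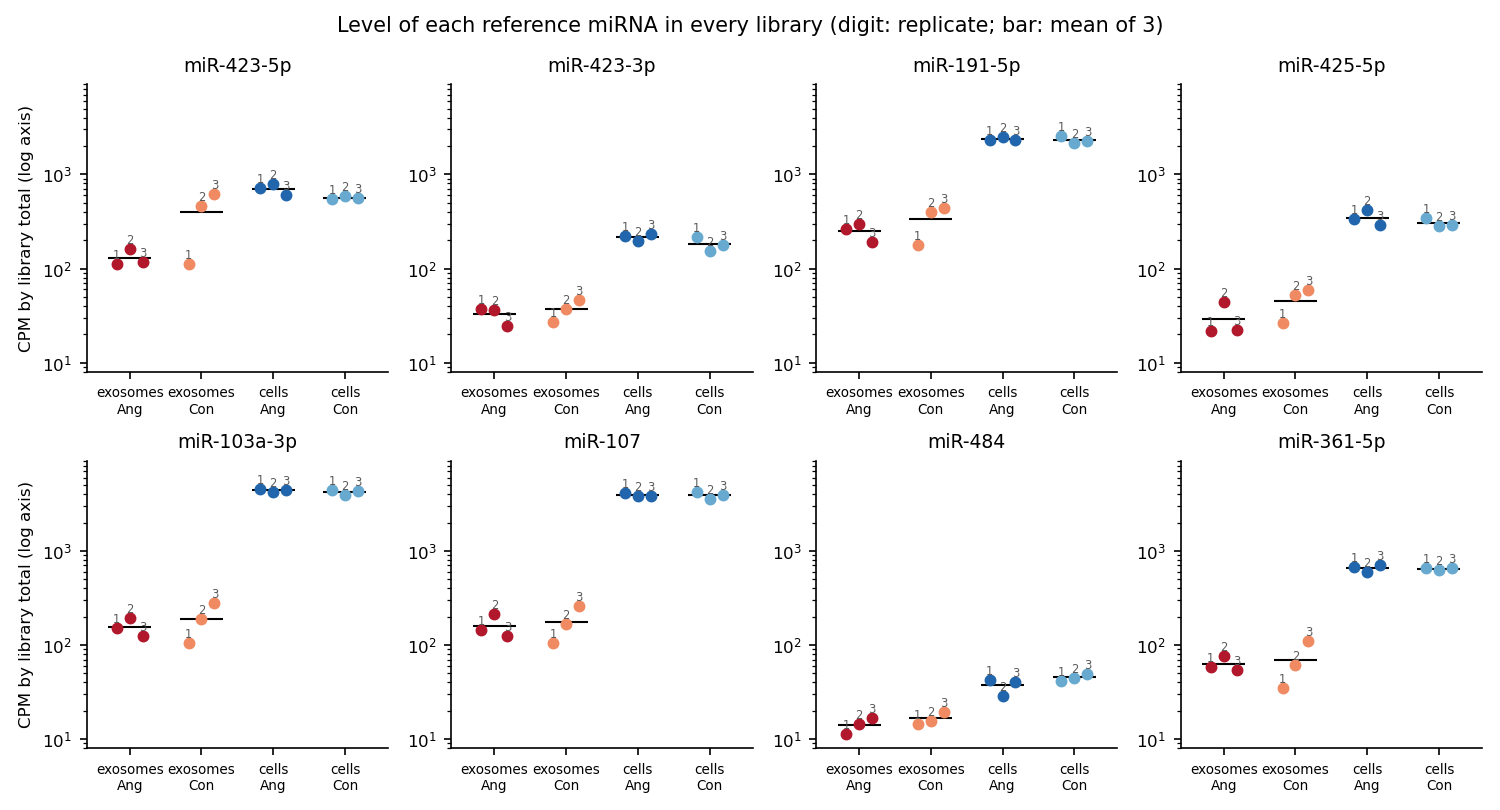
Level of each reference miRNA in every library, in CPM by library total on a log axis, with the groups exosomes Ang, exosomes Con, cells Ang and cells Con from left to right; points are libraries, digits their replicate numbers and bars the mean of 3. Cell libraries lie close together, while exosomes Con replicate 1 lies below replicates 2 and 3 for every one of the 8.

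In cells, no reference miRNA passed the test between Ang and Con, and 7 of the 8 were held within 1.5-fold, meaning that the 95% interval of the log2 difference lay inside the range from a 1.5-fold decrease to a 1.5-fold increase. Over all 1630 names tested, 47.7% were held in this sense, 2.76% were called higher and 3.80% lower at an adjusted p under 0.05 (edgeR's quasi-likelihood test, Benjamini-Hochberg over all names). The members' median log2 difference was 0.033, against 0.024 over all names. All 8 passed the filter on low counts in every comparison. Log2 differences are on the TMM scale, which sets libraries level by the bulk of their names, while the CPM values are by library total.

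The pair from the MIR423 hairpin gave the largest positive differences in cells. miR-423-5p had 714, 784 and 603 CPM in cells Ang, against 541, 585 and 557 CPM in cells Con. The 3 Ang libraries lay above the 3 Con libraries, and the log2 difference was 0.30 (SE 0.10, 95% interval 0.082 to 0.53), with an unadjusted p of 0.0103 and an adjusted p of 0.105. It passed only without cells Ang replicate 3 (log2 0.40, adjusted p = 0.0219), and it was 0.21 without replicate 2 (adjusted p = 0.346), the library with the highest value and the most blood and liver markers. Its opposite strand miR-423-3p had 220.2, 198 and 234 CPM in cells Ang and 216, 153 and 179 CPM in cells Con, overlapping groups with a log2 difference of 0.24 (interval -0.068 to 0.54).

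The DALRD3 pair and the miR-103/107 family were close to level in cells. miR-191-5p had 2289, 2501 and 2342 CPM in cells Ang, against 2526, 2145 and 2271 CPM in cells Con, a log2 difference of 0.024 (interval -0.14 to 0.19). Its partner miR-425-5p spread further, with 336, 421 and 287 CPM in cells Ang and 348, 283 and 292 CPM in cells Con, a log2 difference of 0.16 (interval -0.15 to 0.46). The groups overlapped for both. miR-103a-3p had 4516, 4196 and 4440.0 CPM in cells Ang and 4429, 3897 and 4318 CPM in cells Con, a log2 difference of 0.042 (interval -0.10 to 0.19). miR-107 had 4151, 3789 and 3859 CPM in cells Ang and 4183, 3543 and 3929 CPM in cells Con, a log2 difference of 0.0029 (interval -0.15 to 0.16). miR-103a-3p, miR-107 and miR-191-5p had the narrowest intervals of the 8, on 963 to 2342 UMIs per cell library.

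miR-361-5p was also held within 1.5-fold, at 681, 599.7 and 704 CPM in cells Ang and 654, 629.8 and 653 CPM in cells Con, a log2 difference of 0.022 (interval -0.17 to 0.21). miR-484 was the exception, at 42.8, 29.02 and 40.9 CPM in cells Ang, against 41.6, 44.6 and 49.5 CPM in cells Con. Its log2 difference of -0.25 had an interval from -0.77 to 0.26, so a difference was not detectable at its depth of 12 to 23 UMIs per library.

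In exosomes, 1 of the 8, miR-423-5p, was called lower in Ang, and by their intervals 2 of the 8, miR-423-3p and miR-484, were held within 1.5-fold. For miR-484 the SD over the exosome libraries was only 0.46 of what counting alone would give. Its interval may therefore be too narrow, and miR-484 is not securely shown to lie within 1.5-fold. Over all 1199 names tested, 17.0% were called higher, 17.0% lower and 28.1% were held, so the members' shares called lower and held were near the background, while 0 of the 8 were called higher. The members' median log2 difference was -0.067, against -0.052 over all names. Scaling by library totals in place of TMM moved the median of all names by -0.16.

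miR-423-5p had 112, 161 and 117 CPM in exosomes Ang, against 112, 466 and 614 CPM in exosomes Con. The groups overlapped, because Con replicate 1 lay at the level of the Ang libraries while Con replicates 2 and 3 were above all of them. The log2 difference was -1.42 (SE 0.46, interval -2.45 to -0.38), with an adjusted p of 0.0388. The call ended with DESeq2 (adjusted p = 0.102), with limma-voom (adjusted p = 0.187), and without Con replicate 2, Con replicate 3 or any 1 Ang library (adjusted p between 0.0597 and 0.132). It also ended with scaling by the 8 members, a factor that includes miR-423-5p itself (log2 -1.04, adjusted p = 0.399). Without Con replicate 1 the log2 difference was -1.85 (adjusted p = 2.41e-07).

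Several markers of blood cells and liver were high or low in the same libraries as miR-423-5p. Of the 7 markers 6 were tested in exosomes, and 4 of them were called lower in Ang, against 17.0% of all 1199 names. The marker values given here are from the main fit alone. The red-cell miRNA miR-451a had 0, 23.0 and 6.85 CPM in exosomes Ang, against 9.71, 92.3 and 128 CPM in exosomes Con, a log2 difference of -2.63 (adjusted p = 0.0423). The liver miRNA miR-122-5p had 4.30, 18.8 and 10.8 CPM in exosomes Ang and 8.74, 123 and 156 CPM in exosomes Con (log2 -2.81, adjusted p = 0.0261). The white-cell miRNAs miR-142-3p (log2 -1.69, adjusted p = 0.0491) and miR-223-3p (log2 -0.45, adjusted p = 0.0455) were also lower in Ang, and miR-486-5p was at -1.45 with an adjusted p of 0.0904. The sixth marker tested, miR-150-5p, had 7.17, 18.8 and 17.6 CPM in exosomes Ang and 19.4, 19.1 and 25.7 CPM in exosomes Con (log2 -0.33, adjusted p = 0.448). For miR-451a and miR-122-5p, as for miR-423-5p, Con replicates 2 and 3 were high and Con replicate 1 was low, while miR-150-5p did not show this order. Con replicate 1 was also the lowest Con library for each of the 8 reference miRNAs. The same held for let-7a-5p, at 1376, 2425 and 3168 CPM in exosomes Con. It also held for miR-16-5p, at 2694, 9752 and 11811 CPM in exosomes Con, against 3239, 5572 and 3356 CPM in exosomes Ang. The log2 difference of miR-16-5p was -0.81 (adjusted p = 0.166). Both names are examples from the list of further normalizers read below. Con replicate 1 was thus also low for names outside the list of blood and liver markers, by amounts that differed between names. The part of the blood and liver markers in the miR-423-5p result was not tested.

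The other 7 were not called in exosomes. The opposite strand miR-423-3p had 37.3, 36.6 and 24.4 CPM in exosomes Ang, against 27.2, 37.1 and 46.3 CPM in exosomes Con, overlapping groups with a log2 difference of -0.016 (interval -0.55 to 0.52). miR-191-5p had 261, 293 and 189.7 CPM in exosomes Ang and 177, 403 and 434 CPM in exosomes Con, a log2 difference of -0.27 (interval -0.89 to 0.35). Without Con replicate 1 it was called lower in Ang, at -0.57 (adjusted p = 0.00628). miR-425-5p had 21.5, 43.9 and 22.5 CPM in exosomes Ang and 26.2, 51.8 and 58.7 CPM in exosomes Con, a log2 difference of -0.44 (interval -1.19 to 0.31).

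miR-103a-3p had 151, 194 and 123 CPM in exosomes Ang and 105, 189 and 277 CPM in exosomes Con, a log2 difference of -0.11 (interval -0.74 to 0.53). miR-107 ran alongside it, at 145, 213 and 125 CPM in exosomes Ang and 106, 167 and 257 CPM in exosomes Con, a log2 difference of 0.047 (interval -0.58 to 0.67). For both, the Ang libraries lay between the lowest and the highest Con library. miR-361-5p did the same, with 58.8, 77.3 and 53.8 CPM in exosomes Ang and 35.0, 60.8 and 110.2 CPM in exosomes Con, a log2 difference of 0.065 (interval -0.67 to 0.80). miR-484 had 11.5, 14.6 and 16.6 CPM in exosomes Ang and 14.6, 15.8 and 19.6 CPM in exosomes Con, a log2 difference of -0.028 (interval -0.57 to 0.51). At its low counts this interval may be narrower than the counting error allows.

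**Figure D2:**
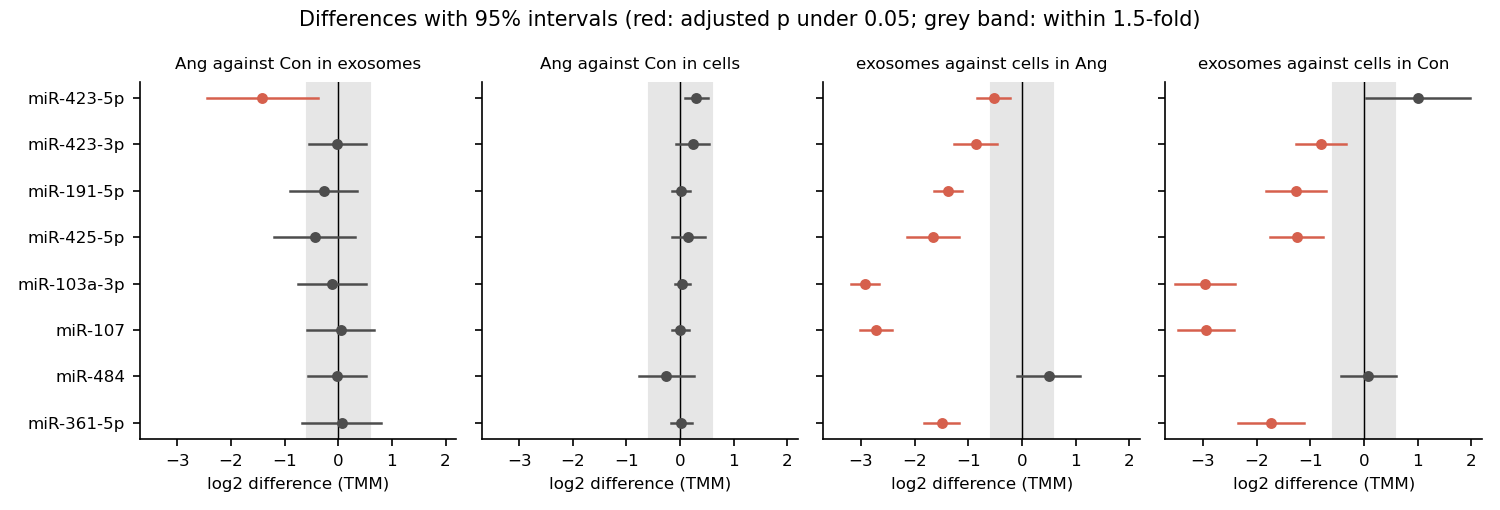
Log2 differences on the TMM scale for the 8 reference miRNAs in 4 comparisons, with 95% intervals; red marks an adjusted p under 0.05 and the grey band the range within 1.5-fold. The intervals are narrow for Ang against Con in cells and wider in exosomes, and in the 2 comparisons of exosomes against cells most names lie left of the band.

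The difference between the 2 Ang effects was tested as an interaction over all 12 libraries. miR-423-5p was called, with an Ang effect in exosomes lower than that in cells by a log2 value of -1.60 (SE 0.52, interval -2.69 to -0.51, adjusted p = 0.0451). It was the only call among the 8, against 9.97% of the 1835 names tested called higher and 5.18% lower, and none of the 8 was held within 1.5-fold, against 10% of all names. The call ended with DESeq2 (adjusted p = 0.0929), with limma-voom (adjusted p = 0.216), with a replicate block (adjusted p = 0.0506) and without any 1 library other than cells Ang replicate 3 and exosomes Con replicate 1. It also ended with scaling by the 8 members, a factor that includes miR-423-5p itself (log2 -1.28, adjusted p = 0.249). The other 7 ranged from -0.46 for miR-425-5p to 0.37 for miR-484, each with an interval that included 0. Without exosomes Con replicate 1, miR-191-5p was also called (log2 -0.51, adjusted p = 0.0469).

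Between compartments 6 of the 8 differed more than between treatments. miR-423-5p did not, with a log2 difference of -1.42 between treatments in exosomes, against -0.53 in Ang and 1.01 in Con between compartments. miR-484 was called in none of these comparisons. In Ang samples 7 of the 8 were called lower in exosomes than in cells, and in Con samples 6 of the 8. In both comparisons 0 members were called higher and 0 were held. In Ang, 45.1% of the 1627 names tested were called lower in exosomes, 38.2% higher and 3.26% held; in Con, 44.2% of 1710 names were called lower, 39.2% higher and 3.27% held. The members' median log2 difference was -1.43 in Ang, against -0.31 over all names, and -1.26 in Con, against -0.27 over all names. Scaling by library totals in place of TMM moved the median of all names by -1.88 in Ang and -1.51 in Con, and the values below are relative to TMM. RNA from exosomes and from cells was extracted with different kits, per the labels, so compartment and kit cannot be told apart.

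The miR-103/107 family was furthest below its cell level. miR-103a-3p averaged 156 ± 35.8 CPM in exosomes Ang, against 4384 ± 167 CPM in cells Ang (SD, n = 3 each), a TMM-scaled log2 difference of -2.92 (SE 0.13, adjusted p = 6.44e-13). In Con it averaged 190.3 ± 86.0 CPM in exosomes, against 4215 ± 280.4 CPM in cells, a log2 difference of -2.96 (SE 0.25, adjusted p = 1.00e-06). miR-107 was lower by nearly as much, at -2.72 in Ang (adjusted p = 7.90e-12) and -2.95 in Con (adjusted p = 6.18e-07).

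miR-361-5p was lower in exosomes by a log2 value of -1.49 in Ang and -1.72 in Con. miR-191-5p was lower at -1.37 in Ang and -1.27 in Con, and miR-425-5p at -1.65 in Ang and -1.26 in Con. miR-423-3p had the smallest of the called differences shared by both treatments, -0.86 in Ang and -0.80 in Con. The adjusted p-values of these 4 names lay between 1.86e-08 and 0.00403, and in Con their direction and calls held without exosomes Con replicate 1.

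miR-423-5p and miR-484 were placed differently by treatment or by library totals; under scaling by the 8 members, other members changed too. miR-423-5p was called lower in exosomes Ang than in cells Ang (log2 -0.53, SE 0.15, adjusted p = 0.00346), a call that ended without exosomes Ang replicate 1 (adjusted p = 0.0820) or replicate 3 (adjusted p = 0.0720) and in 1 fit of all 12 libraries (adjusted p = 0.203). In Con its log2 difference was 1.01 (SE 0.43, adjusted p = 0.0503). It was called higher there with RLE size factors (log2 0.96, adjusted p = 0.0422), with no count filter (log2 1.07, adjusted p = 0.0274), in 1 fit of all 12 libraries (log2 1.06, adjusted p = 0.0109), and without exosomes Con replicate 1 at 1.46 (adjusted p = 7.56e-12). It was also called higher with scaling by the 8 members, which centres them on 0 by construction. By library totals the value in Con turned to -0.50. miR-484 had a log2 difference of 0.50 in Ang (interval -0.097 to 1.09) and 0.078 in Con (interval -0.43 to 0.59), and passed in neither. By library totals it was called lower, at -1.38 in Ang (adjusted p = 0.000211) and -1.43 in Con (adjusted p = 0.000138), and its CPM in each of the 6 exosome libraries was below that in each of the 6 cell libraries.

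Spread over libraries was described by the SD of log2 CPM on the TMM scale, ranked among all names averaging at least 10 CPM. In the 6 exosome libraries the members' SD ranged from 0.18 for miR-484, with 19.3% of 1196 names steadier, to 1.03 for miR-423-5p, with 99.1% steadier. The median of the 8 was 0.47, against 0.31 over all names. In the 6 cell libraries it ranged from 0.072 for miR-361-5p, with 2.29% of 2143 names steadier, to 0.25 for miR-484, with 40.2% steadier, and the median was 0.16, against 0.29 over all names. miR-103a-3p at 0.081, miR-107 at 0.097 and miR-191-5p at 0.11 followed in cells, with 3.45%, 6.86% and 8.49% of names steadier. Across names in cells the SD was larger at low counts, so these ranks also depend on abundance.

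For miR-484 the SD was no larger than counting alone would give: the ratio of observed to counting SD was 0.46 in exosomes and 0.74 in cells. Its SD in exosomes rests on 8 to 19 UMIs per library. For miR-423-5p the same ratio was 8.67 in exosomes and 2.52 in cells, and for miR-191-5p 5.19 in exosomes and 2.44 in cells. Over all 12 libraries miR-484 had the lowest SD of the 8, 0.28, followed by miR-423-3p at 0.49 and miR-423-5p at 0.70, while miR-107 at 1.53 and miR-103a-3p at 1.59 had the highest. The median of the 8 was 0.83, against 0.95 over 1180 names. By library totals the SDs over all 12 libraries ran from 0.77 for miR-484 to 2.48 for miR-103a-3p.

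**Figure D3:**
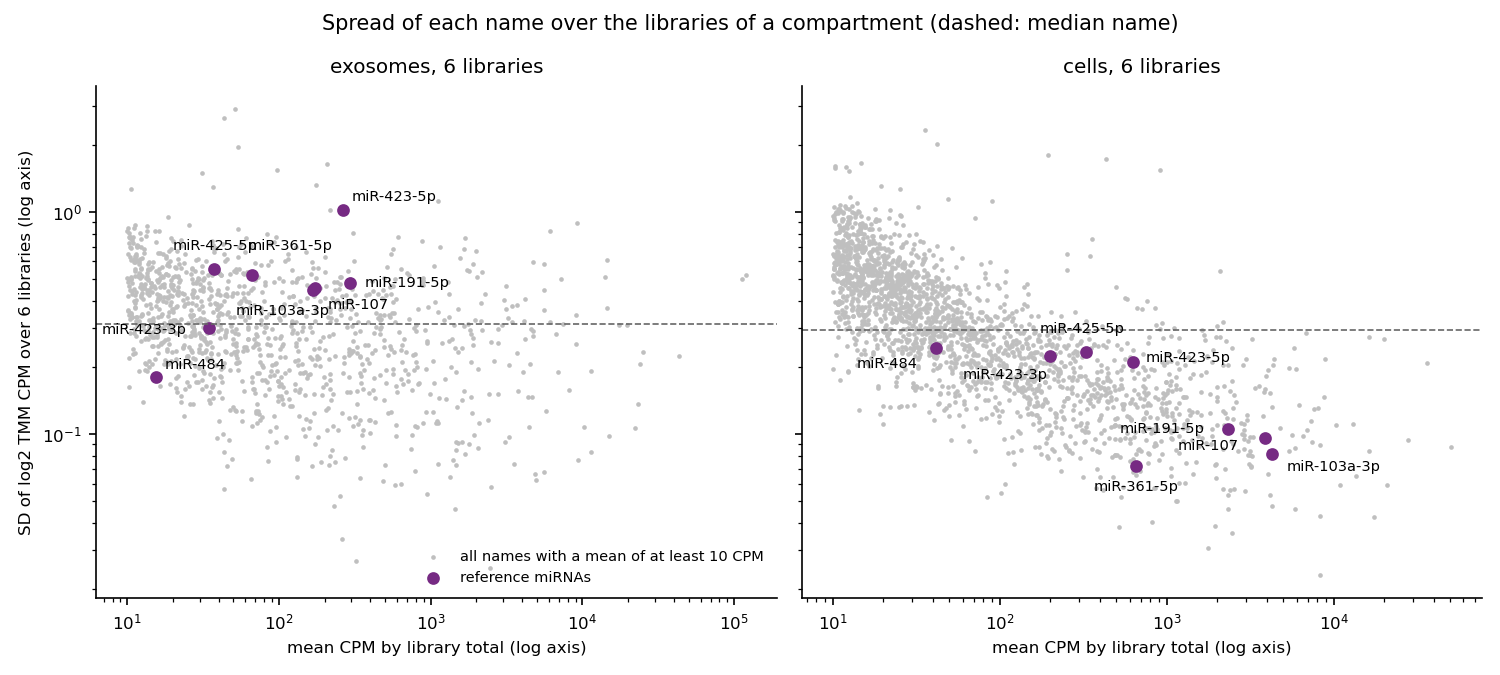
SD of log2 TMM CPM against mean CPM, both on log axes, for all names with a mean of at least 10 CPM (grey) and the 8 reference miRNAs (purple), over the 6 exosome libraries and the 6 cell libraries; the dashed line is the median name. The 8 lie below the median in cells, while in exosomes 6 lie above it, with miR-423-5p the highest at 1.03.

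In 2 exosome libraries all 8 reference miRNAs deviated in the same direction. In exosomes Con replicate 1 all 8 lay below their own mean over the 6 exosome libraries, by a median log2 value of -0.65, and in exosomes Con replicate 3 all 8 lay above it, by 0.57. In exosomes Ang replicate 3, 7 of the 8 lay below their mean (median -0.37), and in exosomes Ang replicate 2, 7 lay above it (median 0.23). In cells the largest median deviation was -0.15, in Con replicate 2. Ratios between members, which do not depend on scaling, had a median SD over the 28 pairs of 0.40 in exosomes and 0.22 in cells. miR-103a-3p had the lowest mean SD of its 7 ratios in both, 0.32 in exosomes and 0.15 in cells, though its ratio to the near-identical miR-107 is one of the 7. The highest mean SD was that of miR-423-5p in exosomes, 0.79, and that of miR-484 in cells, 0.33.

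**Figure D4:**
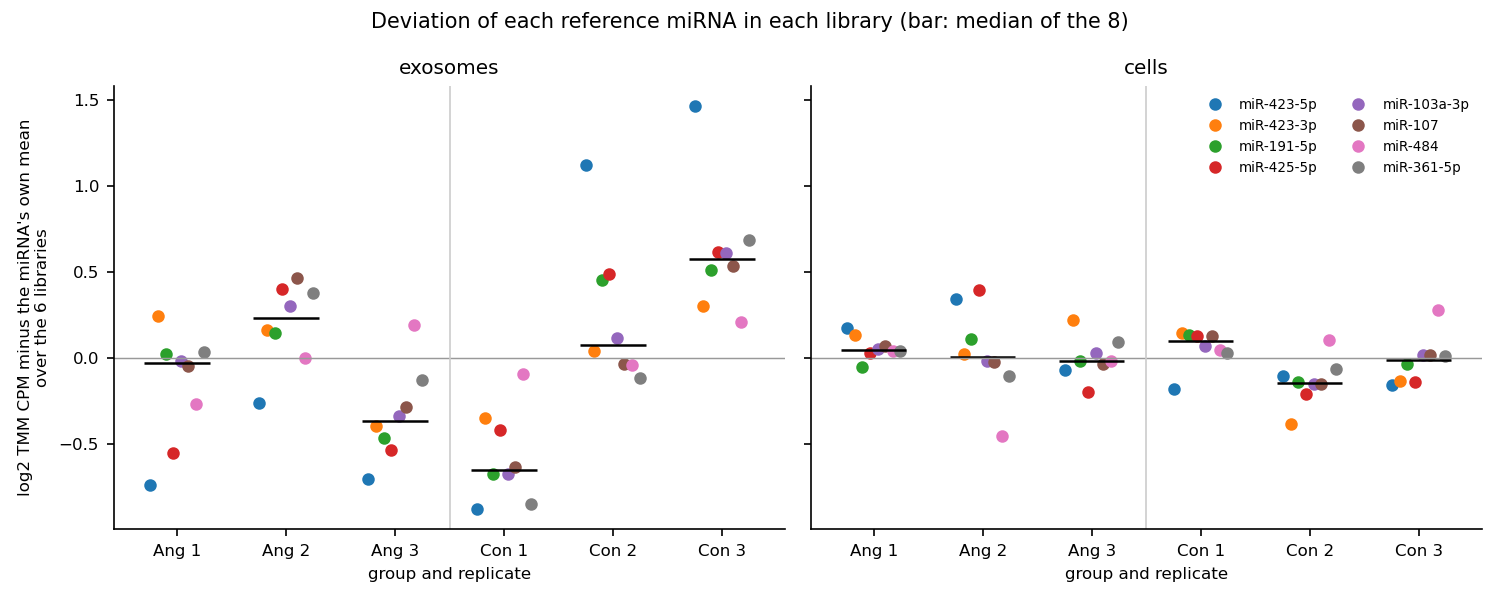
Log2 TMM CPM of each reference miRNA in each library minus its own mean over the 6 libraries of the compartment, with Ang left of Con; bars are the median of the 8. In exosomes the medians run from -0.65 in Con replicate 1 to 0.57 in Con replicate 3, and in cells from -0.15 to 0.099.

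The 3 ratios of linked names were compared between groups by exact two-sided permutation tests over libraries, 12 tests in all, in which 3 against 3 cannot give a p under 0.1. The 2 strands of MIR423 stood at 3.0, 4.4 and 4.80 UMIs of miR-423-5p per UMI of miR-423-3p in exosomes Ang and at 4.11, 12.5 and 13.2 in exosomes Con. In cells the same ratio was 3.24, 3.95 and 2.58 in Ang and 2.51, 3.82 and 3.11 in Con. Exosomes Con replicates 2 and 3 were far above every other library, and Con replicate 1 lay just above the cell libraries. The log2 ratio in Con was higher in exosomes than in cells by 1.49, with groups that did not overlap (exact p = 0.1, adjusted p = 0.6), and in exosomes Ang minus Con it was -1.14 (exact p = 0.3, adjusted p = 0.667).

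The ratio of miR-191-5p to miR-425-5p was 12.1, 6.69 and 8.43 in exosomes Ang, 6.74, 7.78 and 7.40 in exosomes Con, 6.81, 5.94 and 8.17 in cells Ang and 7.26, 7.58 and 7.77 in cells Con. Its groups overlapped in each of the 4 comparisons, with exact p-values from 0.4 to 0.6. miR-103a-3p over miR-107 stayed between 0.912 and 1.15 in all 12 libraries. In Ang its log2 value was lower in exosomes than in cells by -0.19, with groups that did not overlap (exact p = 0.1, adjusted p = 0.6).

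The number of names called between treatments in exosomes differed widely with the reference used for scaling. With all 8 members as the scaling factor in place of TMM, 6 names were called between exosomes Ang and Con, all lower, against 408 by TMM, and all 6 were among the 408. In cells the same change gave 94 names against 107, with 85 in both, and the share called higher was 28.7% against 42.1%. For the interaction it gave 8 names against 278. With 1 member alone, chosen after the data were seen, the counts in exosomes were 0 by miR-423-5p, 34 by miR-423-3p, 182 by miR-484 and 4 to 7 by the other 5. In cells they ran from 14 by miR-425-5p to 188 by miR-423-5p, and of those 188 names 181 were lower in Ang. miR-484 gave 45 names in cells, all higher in Ang.

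Against the cells, scaling by the 8 members moved the exosome values of all names upward, by a median log2 value of 1.38 in Ang and 1.35 in Con. The names called were then 1233 in Ang, 73.2% of them higher in exosomes, against 1355 with 45.8% higher by TMM. In Con they were 1234, with 71.1% higher, against 1425 with 47.0% higher by TMM. Under this scaling miR-484 was called higher in exosomes in both treatments, at 1.87 in Ang and 1.38 in Con, and so was miR-423-5p, at 0.85 in Ang and 2.12 in Con. Of the names called by TMM, 1008 in Ang and 1042 in Con were called under both.

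**Figure D5:**
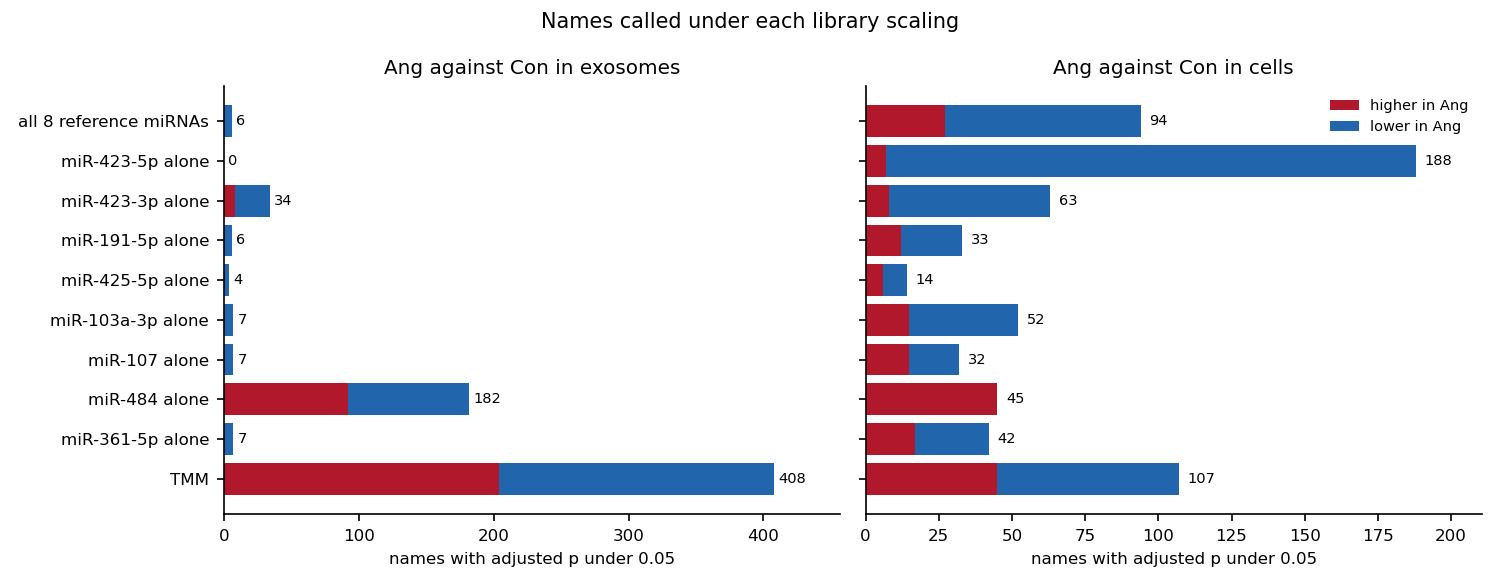
Number of names with an adjusted p under 0.05 between Ang and Con when libraries are scaled by all 8 reference miRNAs, by each alone, or by TMM; red bars are higher in Ang and blue bars lower. In exosomes TMM gave 408 names and all 8 members 6, and in cells the counts were 107 and 94.

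A list of 18 further miRNAs used as normalizers was read from the same fits. None of the 18 was called between Ang and Con in cells, where 17 were held within 1.5-fold, against 47.7% of all names. None of the 16 tested was called in exosomes, where 17.0% of all names were called higher and 17.0% lower, and 4 were held, a share near the 28.1% of all names. Their median SD was 0.41 in exosomes and 0.13 in cells. In exosomes against cells, 17 of 18 were called lower in Ang, against 45.1% of all names, and 16 of 18 in Con, against 44.2%. let-7a-5p, for example, was lower by a log2 value of -2.79 in Ang and -2.92 in Con (adjusted p = 4.61e-13 and 7.02e-07). miR-1228-3p was the exception in the other direction, called higher in exosomes at 4.44 in Ang and 3.86 in Con (adjusted p = 6.88e-13 and 7.69e-09). Of the other strands of the reference hairpins, miR-191-3p, miR-425-3p and miR-361-3p were tested against cells, and all 3 were lower in exosomes in both treatments, miR-361-3p at -1.16 in Ang and -0.79 in Con. miR-103b, which comes from hairpins that overlap MIR103A1 and MIR103A2 on the opposite genomic strand, was lower at -3.20 in Ang and -3.10 in Con. Its exosome values rest on few counts, 9 UMIs over all of exosomes Ang and 13 over exosomes Con. The same limit holds for miR-191-3p (9 and 16 UMIs) and miR-425-3p (10 and 21 UMIs), so the size of these differences is uncertain.

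By correlation of log2 TMM CPM over the 12 libraries, given as a description since the libraries fall into 2 compartments, the name most like miR-423-5p was let-7c-5p (r = 0.90), and the names most like miR-484 were miR-6509-3p (r = 0.81) and miR-6779-3p (r = 0.80). The other 6 had a closest name at r of 0.96 or above, among them let-7a-5p for miR-103a-3p (r = 0.999), let-7b-5p for miR-191-5p (r = 0.99) and miR-421 for miR-361-5p (r = 0.99). Among names averaging at least 100 CPM, those with the lowest SD over all 12 libraries were miR-4321 at 0.094, let-7d-3p at 0.11, miR-218-2-3p at 0.11, miR-6873-3p at 0.14 and miR-616-3p at 0.15. By library totals these were not level either: miR-4321 averaged 732 CPM in exosomes Ang and 765 CPM in exosomes Con, against 2478 CPM in cells Ang and 2295 CPM in cells Con. The steadiest in exosomes was miR-6793-5p, with an SD of 0.025, and in cells miR-668-3p, at 0.023.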

How the data were processed

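Small RNA libraries of AC16 cells and exosomes were made with the QIAseq miRNA library kit, per the labels' protocols. The deposited values are whole-number UMI counts per mature miRNA name, not normalized, per the file headers and the values. The submitters' processing notes name cutadapt and GRCh38; the aligner is not given in the sources used here. Exosome files list 2580 names; the 76 others, with at most 20 counts in a cell library, were taken as 0, and no member is among them.

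Counts were tested with edgeR 4.0.16 (R 4.3.3; quasi-likelihood, TMM, filterByExpr, two-sided, Benjamini-Hochberg over all tested names, threshold 0.05) within the groups compared, with the interaction over all 12 libraries. Standard errors came from the square root of F, and 95% intervals from the t distribution. Log2 CPM used a prior count of 0.5. The floor of 3 counts and the intervals cover counting and library spread only. For miR-484, whose SD was below that of counting alone, the intervals may fall short of the counting error. Code was tested on simulated data. Alternatives were RLE size factors, library totals, scaling by the members, DESeq2 1.42.0, limma 3.58.1 (voom), other filters, a replicate block, 1 joint fit, summed miR-103a-3p and miR-107, and each library left out. Named were all 8 members, list members past the threshold (at most 6 per comparison), the closest names by correlation and the 5 steadiest names. miR-223-3p, miR-142-3p and the other markers are from lists of markers. The members and lists were chosen with earlier results of these data known.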

Additional observations from a re-analysis of the deposited data

Results flagged for a closer look

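The Ang effect on miR-423-5p passed the test of a difference between the compartments, and the call held under only some of the alternatives: in exosomes it was lower than in cells by a log2 value of -1.60 (interaction term, edgeR's quasi-likelihood test, adjusted p = 0.0451). In exosomes the log2 difference of Ang against Con was -1.42, and in cells it was 0.30. The call was lost with DESeq2, limma-voom, a replicate block (adjusted p = 0.0506) and scaling by the 8 members, miR-423-5p among them. Of the 12 fits that leave out a library, 2 kept the call. Of the tested markers of blood cells and liver, 4 were also called lower in exosomes Ang than in exosomes Con, where 17.0% of all names were called lower. The part of these markers in the miR-423-5p difference was not tested.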

How the results depend on the processing

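The calls of the 6 members lower in exosomes in Con, and of the same 6 in Ang, held with RLE size factors, library totals, DESeq2, limma-voom, both other filters, the replicate block, the joint fit and without each library, and not with scaling by the 8 members, where miR-103a-3p and miR-107 alone of the 6 stayed lower. Values of members with a log2 difference near 0 changed sign most often, and the cause was not tested. Below, "difference of effects" is Ang change in exosomes minus in cells.

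With RLE size factors, log2 values turned to 0.096 for miR-103a-3p (difference of effects), -0.0089 for miR-107 (Ang in cells), and 0.025 for miR-423-3p and 0.014 for miR-484 (Ang in exosomes). With DESeq2 they turned to 0.097 for miR-103a-3p (difference of effects), -0.0088 for miR-107 (Ang in cells) and 0.035 for miR-423-3p (Ang in exosomes). With limma-voom miR-103a-3p turned to 0.065, and with miR-103a-3p and miR-107 summed it turned to 0.077 (difference of effects). In 1 joint fit, Ang in cells turned to -0.011 for miR-103a-3p, -0.050 for miR-107, -0.031 for miR-191-5p and -0.033 for miR-361-5p, and Ang in exosomes to 0.062 for miR-423-3p and 0.056 for miR-484. With a mean of at least 10 CPM, Ang in cells turned to -0.026 for miR-107, -0.0051 for miR-191-5p and -0.0080 for miR-361-5p. With no count filter it turned to -0.025, -0.0052 and -0.0068 for the same names, Ang in exosomes to -0.028 for miR-107 and -0.0078 for miR-361-5p, and the difference of effects to 0.0082 for miR-103a-3p.

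With library totals, Ang in exosomes turned to -0.13 for miR-107 and -0.11 for miR-361-5p, and the difference of effects to -0.14 for miR-107 and -0.15 for miR-361-5p. In exosomes against cells, miR-484 turned to -1.38 in Ang and -1.43 in Con, and miR-423-5p to -0.50 in Con. These totals moved the median name by -0.32 for the difference of effects.

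With scaling by the 8 members, Ang in cells turned to -0.018 for miR-103a-3p, -0.057 for miR-107, -0.035 for miR-191-5p and -0.041 for miR-361-5p. Ang in exosomes turned to 0.16 for miR-103a-3p, 0.20 for miR-423-3p and 0.17 for miR-484, and the difference of effects to 0.18 for miR-103a-3p, 0.033 for miR-191-5p and 0.026 for miR-423-3p. In exosomes against cells, Ang turned to 0.0049 for miR-191-5p, 0.52 for miR-423-3p and 0.85 for miR-423-5p, and Con to 0.51 for miR-423-3p and 0.010 for miR-425-5p. By construction this scaling centres the members on 0. Names called were 6 for Ang in exosomes, against 408 by TMM, and 8 for the difference of effects, against 278; miR-423-5p was no longer called in either (adjusted p = 0.399 and 0.249). With miR-423-5p, miR-423-3p, miR-191-5p, miR-425-5p, miR-103a-3p, miR-107, miR-484 and miR-361-5p alone, in that order and chosen after the data were seen, 0, 34, 6, 4, 7, 7, 182 and 7 names were called for Ang in exosomes, and 188, 63, 33, 14, 52, 32, 45 and 42 for Ang in cells.

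Without each library in turn, names called for Ang in cells ran from 38 to 97, against 107, with 38 without Con replicate 2 or Con replicate 3. Log2 values for Ang in cells ran from -0.019 to 0.084 for miR-103a-3p, -0.067 to 0.065 for miR-107, -0.036 to 0.098 for miR-191-5p, -0.026 to 0.080 for miR-361-5p and -0.0097 to 0.28 for miR-425-5p. For Ang in exosomes they ran from -0.39 to 0.24 for miR-103a-3p, -0.20 to 0.39 for miR-107, -0.24 to 0.56 for miR-361-5p, -0.18 to 0.18 for miR-423-3p and -0.15 to 0.078 for miR-484. For the difference of effects they ran from -0.36 to 0.35 for miR-103a-3p, -0.13 to 0.55 for miR-107, -0.51 to 0.051 for miR-191-5p, -0.19 to 0.69 for miR-361-5p and -0.34 to 0.071 for miR-423-3p. For exosomes against cells in Con miR-484 ran from -0.13 to 0.17. Log2 ratios ran from -0.073 to 0.025 for miR-103a-3p over miR-107 and -0.11 to 0.0029 for miR-191-5p over miR-425-5p (exosomes minus cells in Con), and from -0.10 to 0.21 for miR-423-5p over miR-423-3p (Ang minus Con in cells).

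Same-numbered libraries did not deviate together in every pair (correlations from -0.12 to 0.28 over the 4 comparisons), so the numbers are not read as pairs. With a replicate block, names called were 398 for Ang in exosomes, 132 for Ang in cells, 1345 and 1398 for exosomes against cells in Ang and in Con, and 252 for the difference of effects, where the adjusted p of miR-423-5p was 0.0506 (log2 -1.54). Depth limits miR-484 and the exosome values of miR-423-3p and miR-425-5p the most.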
